A study of Mus musculus with 8 samples.

Results

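Chromosome 19 is the smallest of the mouse autosomes, and it was the autosome from which the smallest share of H3K4me3 regions was missing in testes without H3f3b. The H3K4me3 regions of 4 ChIP-seq libraries were joined into 1 set wherever they met or overlapped, and every merged (union) region on chromosome 19 was kept, which gave 511 of 16519 union regions. The chromosome itself was chosen from its share of lost regions in these same libraries. That share, and every other difference between KO and WT on chromosome 19, is therefore given as a description. No such difference of the chromosome as a whole was tested. The widths of single regions were tested over the whole genome, and the calls on chromosome 19 are likewise a description.

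The samples were whole testes of adult C57BL/6 mice. KO mice were H3f3b null (libraries KO 67 and KO 73) and the mice they were set against carried H3f3b WT/WT (libraries WT 66 and WT 74). The labels name no other allele, no treatment and no exact age. Each H3K4me3 library has 1 list of enriched regions, and the 4 input libraries were not analysed here. The labels do not say whether the numbers stand for separate animals, so the spread between libraries may be technical.

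H3K4me3 is histone H3 trimethylated on lysine 4, and it sits over the start sites of active or poised genes, broadly at some of them. H3f3b encodes the variant H3.3, which can enter chromatin outside DNA replication, when transcription, meiosis and the remodelling of sperm chromatin turn nucleosomes over. H3f3a encodes the same protein. A testis mixes germ cells of all stages with Sertoli, Leydig and other somatic cells. In such bulk tissue, fewer cells of a type and less of the mark per cell cannot be told apart.

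The lists held 10502 regions in KO 67, 12497 in KO 73, 14078 in WT 66 and 14551 in WT 74. Scores rose in steps of 0.325, 1.45, 0.874 and 1.39 in the same order. If a step is 1 sequence tag at a common scaling, which is not stated, KO 67 was 4.46 times as deep as KO 73, WT 66 was 1.66 times and WT 74 was 1.04 times as deep. The absolute depth is unknown. The part of depth in the results below was not tested beyond leaving out libraries and equalising the lists.

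Of the 406 chromosome 19 regions found in both WT libraries, 29 had no region in either KO library and are called lost, a share of 7.14% (95% exact binomial interval 4.84 to 10.1, counting error only). On the other 18 autosomes 1397 of 11820 were lost, 11.8% (11.2 to 12.4), and over all chromosomes the share was 11.8%. At the share of the other autosomes, 48.0 regions of chromosome 19 would have been lost, and 29 were. Chromosome 19 stood at the end of a continuous order and not apart from it. Chromosomes 11, 17, 2 and 8 followed with 8.57%, 8.85%, 9.03% and 9.05%. The shares of 7 other autosomes lay inside the interval of chromosome 19, and the intervals of 14 overlapped it. Part of the distance to the other autosomes came from chromosomes 14 and 5, where 25.6% and 16.0% were lost. Without them the share elsewhere was 10.7%.

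The name of a spared chromosome held only in part. When each list was held to the length of the shortest, 5.38% of the chromosome 19 regions and 6.47% of those on other autosomes were lost, and chromosome 19 ranked 8 of 19 from the lowest. When regions below the 25th percentile of score were dropped from each list, the shares were 10.1% and 12.0% and the rank was 6. Without WT 66 chromosome 19 was lowest, with 13.5% lost against 20.7% elsewhere. Without WT 74 the rank was 2, with 13.5% lost against 18.2% elsewhere. Without KO 73 it was 4, with 17.2% against 20.3%. In the other settings run, it was the lowest.

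**Figure D1:**
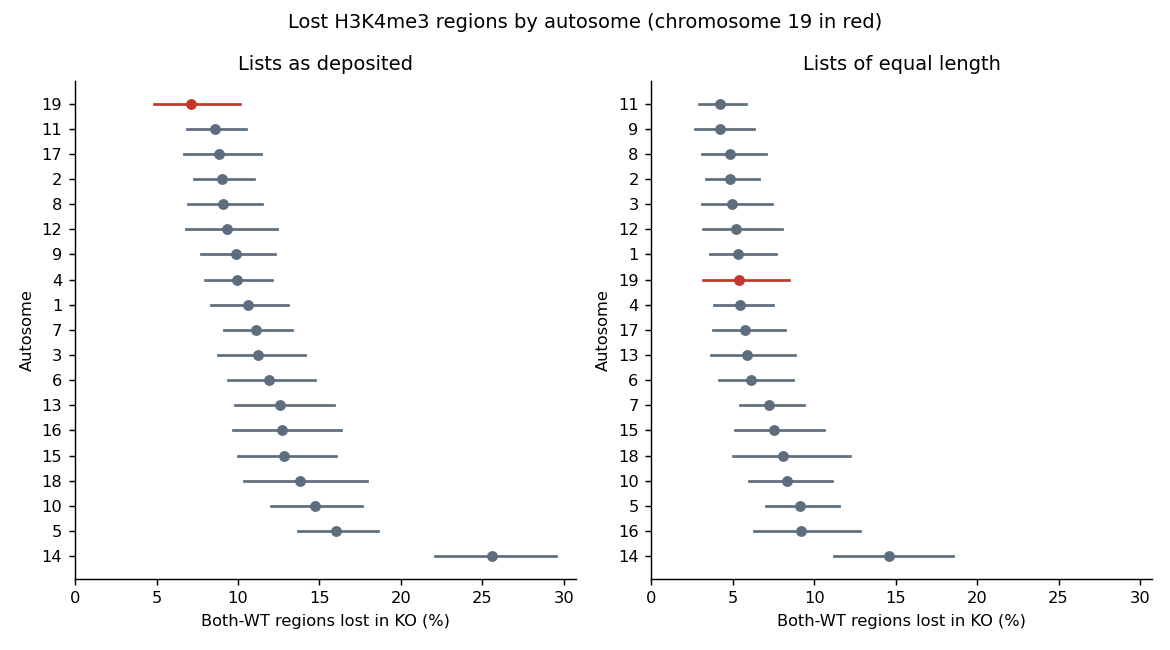
Share of both-WT regions lost in KO (x axis, percent) on each autosome (y axis, sorted by the share), for the lists as deposited (left) and cut to equal length by score (right). Points are shares and bars their 95% exact binomial intervals. Chromosome 19, in red, is lowest on the left at 7.14% and at 5.38% in the midst of the others on the right.

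A smaller share of both-WT regions was absent on chromosome 19 than elsewhere from each KO library. For KO 67 the interval of chromosome 19 held the share elsewhere. Of the 406 both-WT regions, 69 were absent from KO 67, 17.0% (13.5 to 21.0), where 20.3% were absent on the other autosomes and 20.5% over all chromosomes. From KO 73, 37 were absent, 9.11% (6.50 to 12.3), where 13.7% were absent on the other autosomes and 13.8% over all. Chromosome 19 ranked 4 of 19 from the lowest for KO 67 and lowest for KO 73. A further 48 both-WT regions, 11.8% (8.85 to 15.4), were found in 1 KO library, against 10.4% elsewhere. Of these, 40 were in KO 73 and 8 in KO 67, so that KO 67 more often lacked a region. By the steps of its scores KO 67 was the deeper library, but both lists ended at a like score. The smallest was 20.2 in KO 67, or 62 steps, and 20.3 in KO 73, or 14 steps. The part of depth in these absences was not tested. In all, 329 of the 406 regions, 81.0%, were shared by the 4 libraries, against 77.8% elsewhere.

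The rest of the 511 union regions had weaker backing. Regions found in a single library numbered 76, 14.9% of the members and 18.5% of the union regions of the other autosomes. They were 14 in KO 73, 1 in KO 67, 31 in WT 74 and 30 in WT 66. A single region was found in both KO and neither WT library, 1 of the 335 both-KO regions, 0.299% (0.00756 to 1.65), where the share over all chromosomes was 0.589%. This gained region, chr19:10092476-10093114 (mm9, as are all coordinates here), held 639 bp in KO 67 and 501 bp in KO 73. Its scores of 24.4 and 21.7 lay at percentiles 6.70 and 6.36 of the KO lists.

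Libraries of the same genotype were also set against each other. In all but 1 of the 4 comparisons, the shares missing on chromosome 19 and elsewhere were close. Of KO 67 regions, 3.46% on chromosome 19 and 3.25% on other autosomes were missing from KO 73, while of KO 73 regions 18.1% on either were absent from KO 67. Of WT 66 regions, 9.78% and 9.90% were missing from WT 74. Of WT 74 regions, 9.98% (7.37 to 13.1) on chromosome 19 and 12.6% (12.0 to 13.2) elsewhere were missing from WT 66. In this last comparison the interval of chromosome 19 held the share elsewhere. The ratio of 0.792 was lower than that for absence from KO 67, 0.836, and higher than that for absence from KO 73, 0.664.

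On chromosome 19 as elsewhere, weak WT regions were lost more often than strong ones. In percentage points, the gaps between the shares were widest among weak and short regions, where the shares themselves were highest. As a ratio, the gap was larger from the 40th to below the 60th percentile than in the weakest regions, on only 2 lost regions. The score was read only as a percentile within its own list, averaged over the WT libraries. Below the 20th percentile 12 of 45 regions were lost, 26.7% (14.6 to 41.9), against 44.5% on other autosomes. From the 20th to below the 40th it was 14 of 86, 16.3% (9.20 to 25.8), against 23.2%. From the 40th to below the 60th percentile 2 of 82 were lost, 2.44%, against 7.50%. From the 60th to below the 80th none of 83 was lost (exact interval 0 to 4.35), against 1.83%. At or above the 80th percentile 1 of 110 was lost, 0.909% (0.0230 to 4.96), against 0.111%, 3 of 2700. With the other autosomes taken without chromosomes 14 and 5, 19.8% of the chromosome 19 regions below the 40th percentile were lost and 28.2% of theirs.

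By the smaller of the 2 WT covered lengths, 14 of 60 chromosome 19 regions below 750 bp were lost, 23.3% (13.4 to 36.0), against 40.8% elsewhere. From 1000 to below 1500 bp the shares were nearly the same, 6.19% on chromosome 19 and 6.00% elsewhere. No region of 2000 bp or more was lost on chromosome 19. For the 62 regions from 2000 to below 3000 bp the exact interval reached 5.78%, and for the 33 of at least 3000 bp 10.6%. The shares elsewhere, 3.76% and 1.76%, lay under these upper ends, so counts of this size could not show a lower share on chromosome 19.

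WT regions of chromosome 19 had middling scores. The mean WT percentile had a median of 56.6 both on chromosome 19 and on the other autosomes, and chromosome 19 ranked 8 of 19 from the highest. The shares of weak regions were close, with 32.3% of the chromosome 19 regions and 31.9% of the others below the 40th percentile. The upper end was somewhat fuller, with 27.1% (22.8 to 31.7) against 22.8% (22.1 to 23.6) at or above the 80th. Given regions of like score, in 20 bins of WT percentile over the autosomes, 46.7 losses were expected on chromosome 19. The 29 observed were 0.622 times that number, the lowest of the 19 ratios, with chromosomes 17, 8 and 2 next at 0.794, 0.795 and 0.814. The highest ratios were 1.82 on chromosome 14 and 1.36 on chromosome 5. Both chromosomes were part of the bins and so raised the number expected on chromosome 19. In bins of WT covered length the ratio of chromosome 19 was 0.676, and in bins of spacing it was 0.614.

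**Figure D2:**
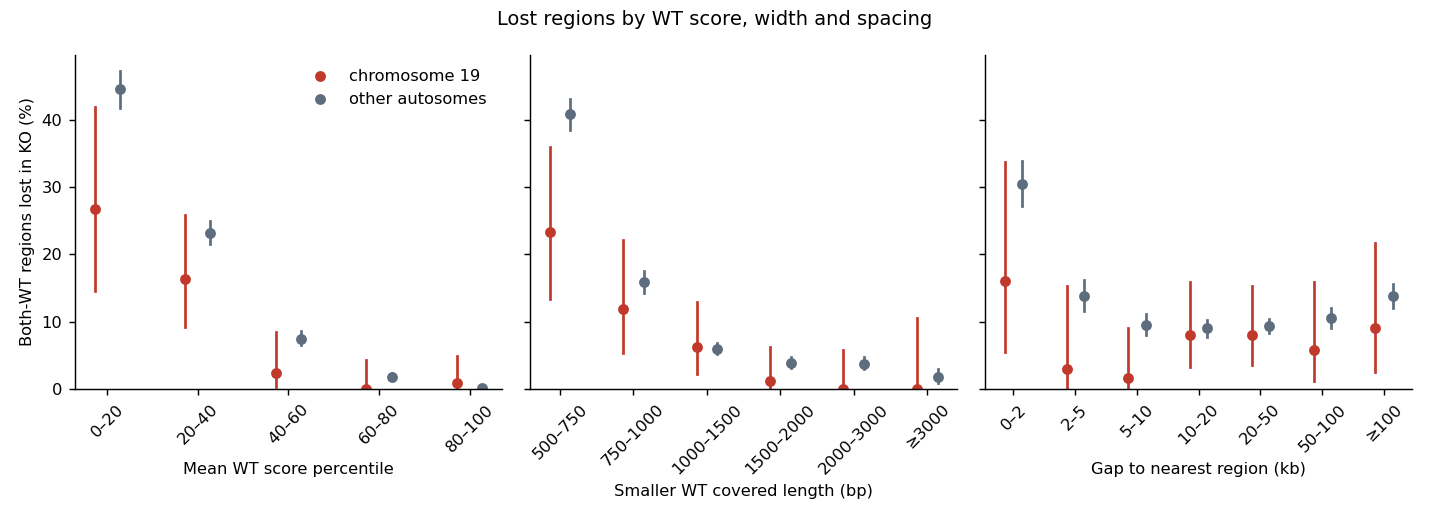
Share of both-WT regions lost in KO (y axis, percent) by mean WT score percentile (left), by the smaller WT covered length in bp (middle) and by the gap to the nearest union region in kb (right), for chromosome 19 (red) beside the other autosomes (grey). Points are shares and bars their 95% exact binomial intervals. The red points lie under the grey ones among the weakest regions, 26.7% against 44.5%, and those below 10 kb from a neighbour, and close to them from 1000 to 1500 bp.

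Regions of chromosome 19 stood close together. The union regions ran over 58.1 Mb at 8.79 per Mb, second of 19 after chromosome 11, and the other autosomes ran from 4.66 to 10.1 per Mb. The gap to the nearest union region had a median of 18.4 kb (quartiles 7.71 and 41.7) on chromosome 19 and 25.2 kb (8.56 and 59.4) on other autosomes, and chromosome 19 ranked 3 of 19 from the closest. Very close neighbours were about as frequent as elsewhere: 9.78% of the regions on chromosome 19 and 9.72% elsewhere had a neighbour within 2000 bp. In the lists themselves, the median gap on chromosome 19 was 25.4 kb in KO 67, 20.7 kb in KO 73, 19.4 kb in WT 66 and 21.1 kb in WT 74. On other autosomes these medians were 34.9, 32.1, 28.8 and 27.6 kb.

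The lost shares of chromosome 19 and the other autosomes lay further apart among closely spaced regions. With a neighbour below 10 kb away, 7 of 124 both-WT regions of chromosome 19 were lost, 5.65% (2.30 to 11.3), against 16.2% (14.9 to 17.6) on other autosomes and 15.0% without chromosomes 14 and 5. At 10 kb or more it was 22 of 282, 7.80% (4.95 to 11.6), against 10.3% and 9.20%. Within 2 kb of a neighbour the shares were highest on both, 16.1% on chromosome 19 and 30.4% elsewhere. The bins were set after earlier results of these data were known, and the difference between spacings was not tested.

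**Figure D3:**
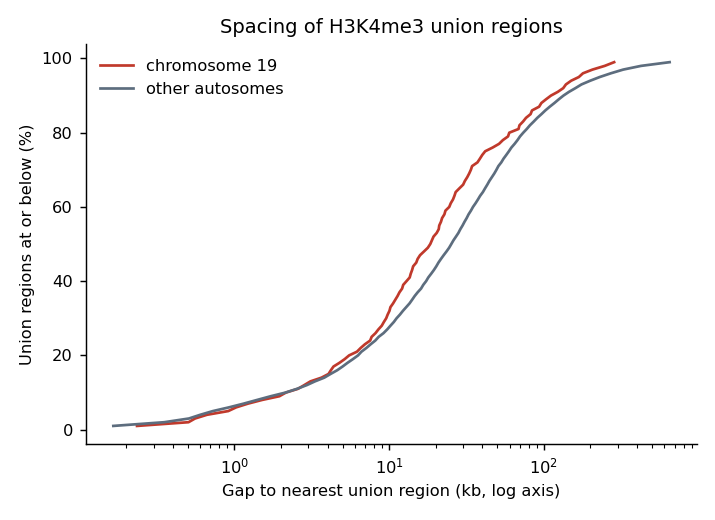
Share of union regions (y axis, percent) whose gap to the nearest union region is at or below the value on the x axis (kb, log scale), on chromosome 19 (red) and on the other autosomes (grey). The curves lie near each other at small gaps and part at wider ones, with medians of 18.4 and 25.2 kb.

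The regions were bunched along the chromosome. Of the 59 windows of 1 Mb from the first to the last region, 50 held a union region and 6 held at least 20, which together had 173 of the 511. The fullest window, from 5 to 6 Mb, held 41 union regions, of which 38 were both-WT regions and 2 were lost. That from 4 to 5 Mb held 35, with 1 of 30 lost, and that from 46 to 47 Mb held 26, with none of 19 lost, a count that allows for up to 3. The longest stretch without a region ran for 4.69 Mb, over chr19:48338453-53030200. The next were 2.13 Mb over chr19:18916088-21042107 and 1.80 Mb over chr19:12871900-14671001. Lost regions were spread over 22 windows, with no more than 4 in any of them. In windows of at least 20 union regions 5.59% (2.45 to 10.7) were lost, and in the others 7.98% (5.01 to 11.9), against 8.41% and 12.9% on other autosomes.

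Genes and promoters were set beside the regions only per chromosome, because no gene positions in mm9 were used here. The RefSeq table for GRCm38.p6, another build, lists 705 protein-coding genes on chromosome 19. That gives 0.725 union regions per gene, rank 15 of 19 from the highest. Of the 1044 promoters (250 bases before to 50 after a gene's start) that RefSeq gives for chromosome 19 in that build, 39.8% (36.8 to 42.8) were rich in CpG, the base pair step that H3K4me3 promoters tend to hold, against 33.7% (33.2 to 34.2) on the other autosomes with promoters in the table. Rich means a ratio of observed to expected CpG above 0.6 and more than 50% G and C. Chromosome 19 ranked 2 from the highest among the autosomes with promoters in the table, after chromosome 11 with 40.6%. Chromosome 5, where 16.0% of the both-WT regions were lost, was close with 38.9%. Single regions were not matched to genes, and no region sequence is shown, since no genome of the build of the lists was used.

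The lost regions of chromosome 19 were short and weak. In 22 of the 29 the smaller WT covered length was below 1000 bp, and in 10 at least 1 WT library had the narrowest width in any list, 501 bp. Their median covered length was 903 (WT 66) and 842 bp (WT 74), and their median score percentiles were 22.6 and 26.6. On other autosomes lost regions had medians of 856 bp in each WT library and percentiles of 21.2 and 25.6. In 28 of the 29 both WT percentiles were below 50.

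Lost regions were ranked by the shorter of the lengths in WT 66 and WT 74. The widest by this measure, chr19:4099858-4101618, held 0 bp in both KO libraries, against 1606 bp in WT 66 and 1577 bp in WT 74. It lay 1.98 kb beyond a region that all 4 libraries held, with 1648 and 1550 bp in KO and 1512 and 1828 bp in WT. The next by this measure, chr19:3917996-3919499, held 1504 and 1173 bp in WT. It too had a kept neighbour, 4.09 kb away, with 1490 and 1112 bp in KO and 1605 and 1693 bp in WT. The one after it, chr19:27419290-27420521, held 1162 and 1140 bp in WT, and its nearest neighbour 20.9 kb away was also lost (chr19:27397169-27398380, 1159 and 1034 bp in WT). All 3 had no region in KO, as had the remaining 2 of the 5 widest, with 1120 and 1185 bp (chr19:45232716-45234054) and 1068 and 1526 bp (chr19:5335751-5337276) in WT. A lost region with a larger length in 1 WT library alone, chr19:45850334-45852606, held 2273 bp in WT 66 but 957 bp in WT 74.

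The lost region that ranked highest by score, taken as the smaller of the 2 WT percentiles, was short but not weak. At chr19:61275411-61276304 only 752 (WT 66) and 894 bp (WT 74) were covered, and its scores of 208 and 198 lay at percentiles 86.1 and 86.8 of those lists. Neither KO library had a region there. It was 1 of the 2 last union regions of the chromosome, and the last, 24.7 kb on, was wider in both KO libraries. Next by score came chr19:4099858-4101618, at percentiles 45.4 and 47.9. The one after it, chr19:47252343-47254662, lay at percentiles 48.1 and 37.1, with 2098 and 994 bp in WT.

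Where chromosome 19 regions were kept, they were narrower in KO, much as on the other autosomes. The 329 regions shared by the 4 libraries had median lengths of 1396 (KO 67) and 1418 bp (KO 73), against 1687 (WT 66) and 1606 bp (WT 74). The median log2 change of KO over WT was -0.19 on chromosome 19 and -0.18 on other autosomes. In 273 regions, 83.0% (78.5 to 86.9), the mean log2 length was lower in KO, where the share over all shared regions was 80.1%. KO and WT lengths did not overlap, with KO the shorter, in 164 regions (49.8%), against 47.4% of all shared regions. KO was the longer without overlap in 17 (5.17%), against 4.74%. With library medians subtracted the median was 0.05 and with quantile normalization 0.07. Both scalings set the libraries to a common level over all shared regions. They take out a change common to these regions, so they cannot settle its direction. On these scales chromosome 19 differed from the other autosomes by -0.01 and 0.00. On the lengths as deposited that difference was also -0.01.

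At both ends the shared regions were shorter at the median. The left edge lay a median of 95.5 bp further in for KO, and the right edge 91.5 bp, against 87.0 and 85.5 bp on other autosomes. Both KO libraries gave similar values, with median log2 changes against WT 66 of -0.24 in KO 67 and -0.26 in KO 73, and against WT 74 of -0.13 and -0.14. The WT libraries themselves differed by 0.09 (WT 66 over WT 74), and the KO libraries by -0.01 (KO 67 over KO 73). The change against WT 74 was thus nearer in size to the difference between the WT libraries than the change against WT 66 was.

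**Figure D4:**
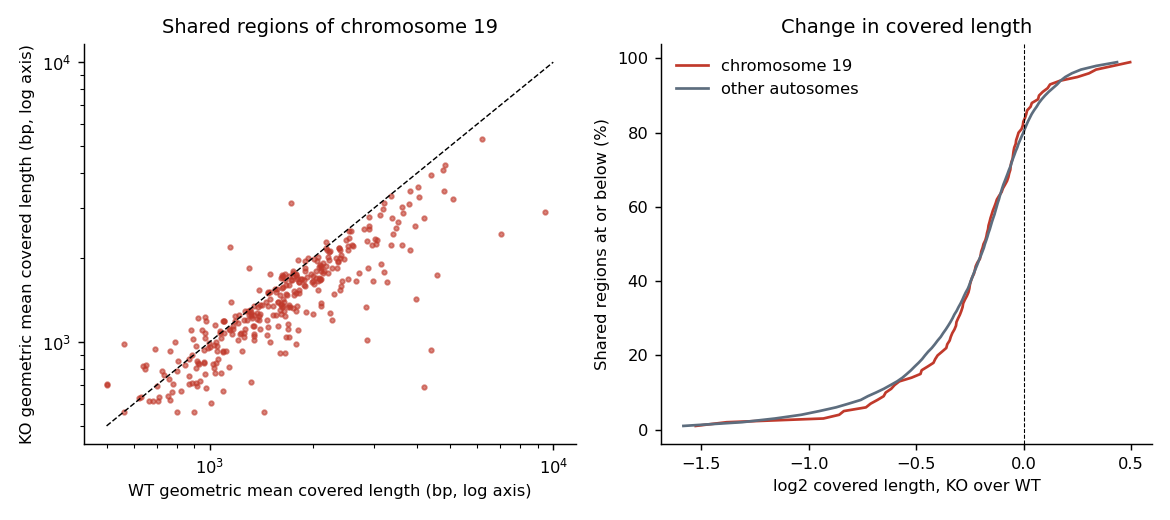
Left, geometric mean covered length of each of the 329 shared chromosome 19 regions in KO (y axis, bp, log scale) against WT (x axis, bp, log scale), with a dashed line of equality. Right, share of shared regions (y axis, percent) with a log2 change of KO over WT at or below the x value, for chromosome 19 (red) and other autosomes (grey). Most points lie below the line, and the curves run together with medians of -0.19 and -0.18.

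Broad regions had the most negative median change on chromosome 19 too. Regions of at least 3000 bp numbered 12 in KO 67 and 15 in KO 73, against 41 in WT 66 and 36 in WT 74, so the KO mean was 64.9% lower. They made up 3.42% and 3.60% of the chromosome 19 regions in KO and 9.01% and 7.93% in WT. On other autosomes such regions numbered 150 and 204 in KO and 917 and 797 in WT, a larger relative fall. The shares there were 1.52% and 1.74% in KO and 6.93% and 5.83% in WT. Of the 33 regions of at least 3000 bp in both WT libraries, 9 were still that wide in both KO libraries, 10 in 1 and 14 in neither. Neither KO library kept this width in 42.4% (25.5 to 60.8) of them, against 62.8% (59.0 to 66.4) on other autosomes. With regions of at least 3000 bp in 1 WT library and the change taken against the other, the median log2 change was -0.38 (picked in WT 66) and -0.41 (picked in WT 74), against -0.46 and -0.56 on other autosomes. From 1000 to below 2000 bp the same medians were -0.08 and -0.23, against -0.11 and -0.21.

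The widest region of chromosome 19 by the smaller WT covered length, chr19:5842292-5853424, held 2382 bp in KO 67 and 3530 bp in KO 73, against 9960 bp in WT 66 and 8971 bp in WT 74. In WT 66, WT 74 and KO 73 this length was the sum of 2 list regions, and in KO 67 it was 1. Its log2 change was -1.70 ± 0.22 (SE from limma). The second, chr19:45853616-45860744, held 2083 and 2822 bp in KO and 7114 and 6952 bp in WT. It also ranked highest on the chromosome by the smaller WT score percentile, with scores at percentiles 99.9 and 99.8, and in KO it lay at 98.9 and 98.6. Its log2 change in length was -1.54 ± 0.17 (SE), with a rank near the top in all 4 libraries. The second highest by score, chr19:59417559-59422683, held 3437 and 3466 bp in KO, against 4504 and 5125 bp in WT.

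The next widest, chr19:5798571-5804918, differed less between the genotypes. It covered 4961 and 5648 bp in KO and 6134 and 6249 bp in WT, a log2 change of -0.23 ± 0.14 (SE), and it lay 37.4 kb before the widest region. The fifth, chr19:5487396-5492337, likewise covered 4430 and 4177 bp in KO and 4942 and 4759 bp in WT. The fourth, chr19:5724848-5730086, covered 2627 and 4030 bp in KO and 5211 and 4997 bp in WT, a log2 change of -0.65 ± 0.22 (SE). Of the 5 widest regions, 4 lay within the same window from 5 to 6 Mb, and their log2 changes ran from -1.70 to -0.17. Broad regions of a single stretch thus differed widely among themselves.

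By limma on log2 covered length, with a variance trend and Benjamini-Hochberg adjustment over all 9742 shared regions of the genome, 10 of the 329 chromosome 19 regions were called narrower at an adjusted p of 0.05 and none wider. That is 3.04%, where 3.60% were called narrower and 0.0103% wider over all shared regions. At an unadjusted p under 0.05 by limma, 58 were narrower. In either direction 60 of the 329 had such a p, 18.2%, against 19.5% on other autosomes. The 10 had a median of 1555 bp in KO and 3574 bp in WT, and their log2 changes ran from -2.61 to -0.74 (adjusted p by limma from 0.0232 to 0.0462). The shortest of them in WT, chr19:4711214-4712798, held 501 and 628 bp in KO, against 1585 and 1311 bp in WT. With any 1 library left out, a fit has 1 library in 1 genotype and 1 residual degree of freedom. The lone library is then assumed to vary like the other genotype, so calls from such fits say nothing about stability. With library medians subtracted, 1 region was called. As the genotype contrast chose the chromosome, the count is a description.

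The region with the most negative log2 change, chr19:10073339-10078691, held 501 bp in KO 67 and 943 bp in KO 73, against 3305 bp in WT 66 and 5353 bp in WT 74. Its score percentiles were 4.79 and 24.6 in KO and 85.2 and 96.7 in WT. The gained region lay 13.8 kb beyond it, and a lost region 22.8 kb beyond that one (chr19:10115946-10116619, 633 and 501 bp in WT). The next by size, chr19:58865988-58870525, held 501 and 1746 bp in KO, against 4513 and 4296 bp in WT. It did not pass the test, and its KO values differed more from each other than its WT values did. The fifth, chr19:3194938-3198000, was the first region of the chromosome, with 768 and 1338 bp in KO and 2669 and 3063 bp in WT, and did not pass either.

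A few regions were wider in both KO libraries than in both WT libraries, and none of the 17 passed the test. The last union region of the chromosome, chr19:61300958-61303343, held 1982 and 2386 bp in KO and 1615 and 814 bp in WT (log2 change 0.92 ± 0.33 SE). Another such region, chr19:26679026-26682627, held 2938 and 3325 bp in KO and 2045 and 1458 bp in WT (0.86 ± 0.19 SE). Its neighbour 14.5 kb on was lost, with 1330 and 501 bp in WT. The third, chr19:12079756-12081267, held 1512 and 636 bp in KO and 501 and 632 bp in WT, and its KO values nearly met those of WT.

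**Figure D5:**
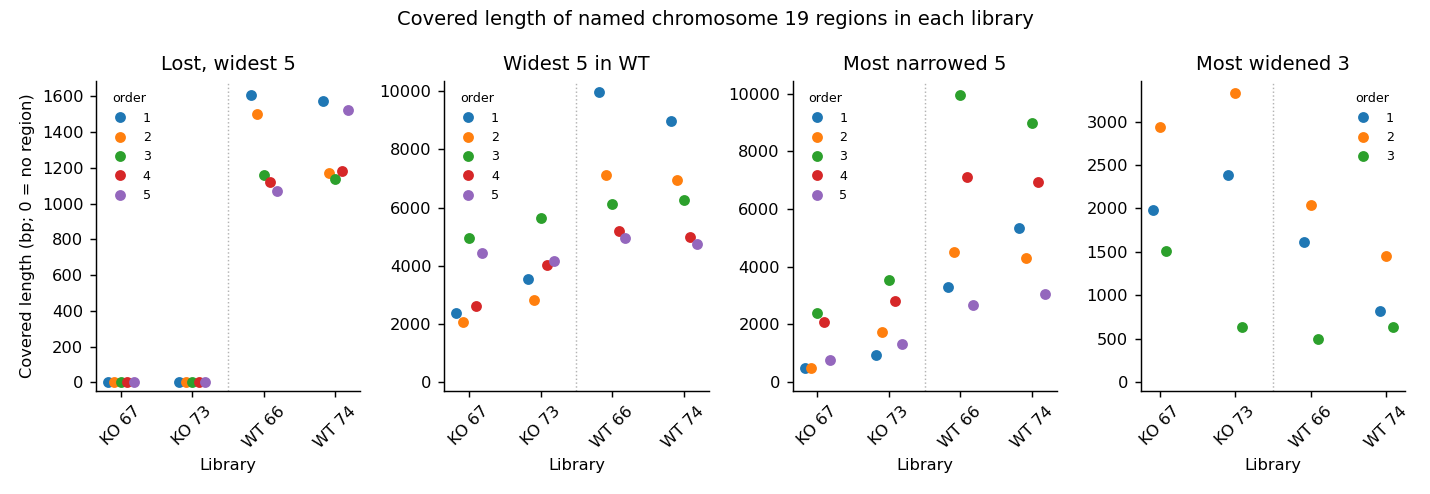
Covered length in bp (y axis, 0 where the library had no region) of single chromosome 19 regions in KO 67, KO 73, WT 66 and WT 74 (x axis), with 1 colour per region in the order of the text. The panels hold the 5 widest lost regions, the 5 widest in WT, the 5 most narrowed and the 3 most widened. Of the widest in WT, the first holds 2382 and 3530 bp in KO against 9960 and 8971 bp in WT, and the next but one 4961 and 5648 bp against 6134 and 6249 bp.

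Over the whole chromosome the mark covered less in both KO libraries than in both WT libraries. The regions of chromosome 19 numbered 351 and 417 in KO and 455 and 454 in WT, 15.5% fewer in KO, against 19.7% fewer on other autosomes. They covered 506 and 567 kb in KO and 744 and 699 kb in WT, 25.6% less in KO, against 29.4% less elsewhere. The share of a list that lay on chromosome 19 was 3.34% in each KO library, against 3.23% in WT 66 and 3.12% in WT 74. With 2 libraries per genotype, an exact permutation test could not have given a p under 0.33 for any of these values, and none was run.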

How the data were processed

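H3K4me3 ChIP-seq regions of 4 testis libraries were used. Bowtie, HOMER and mm9 are named per the submitters' processing notes, with versions and settings not given in the sources used here. Per library, the authors deposited 1 BED list, so regions were called per library. Each region has a deposited score without a stated scale, compared only as a percentile of its list. All scores below 100 lay within 0.055 of a multiple of 1 step per library. Starts were converted to count from 1. A library covered a union region from 1 bp of overlap. Lost means both WT and neither KO library. Shared widths were fitted as log2 values without a pseudocount (limma 3.58.1, R 4.3.3, lmFit and eBayes with trend), a step tested on simulated data. Intervals are exact (Clopper-Pearson, scipy 1.17.1) and cover counting error only, treating regions as independent.

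Chromosome 19, the bins and the rules for named regions were chosen with earlier results of these data known. Named were the 5 widest and 3 highest scoring lost regions, all gained regions, the 5 widest in WT, the 5 most narrowed and 3 most widened without overlap between KO and WT, the 3 highest scoring, the 3 longest gaps and the 3 fullest windows. Width and score ranks used the smaller of the 2 WT values. Their flanking regions were picked after their values were seen. Planned gene lists needed mm9 positions and were not run. Alternatives were other libraries, thresholds, list lengths, overlaps, merging, scalings and bins. The pair WT 74 and KO 73 was added after seeing the data.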

Additional observations from a re-analysis of the deposited data

How the results depend on the processing

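The lost share on chromosome 19 stayed below that of the other autosomes together in all 11 alternatives, with ratios from 0.609 to 0.844. The ratio was 0.604 as reported. The number lost also stayed below the number expected from score in all 8 (0.612 to 0.851). All alternatives reuse the 4 libraries that chose the chromosome, so they give no independent support. The rank of chromosome 19 from the lowest was less steady, at 8 of 19 with lists of equal length and 6 with a stricter score. The share itself, 7.14%, was 9.36% to 17.2% with 1 library left out (13.5% without WT 66 or WT 74, 17.2% without KO 73), 10.1% with a stricter score, 12.7% where 50% of a region had to be covered and 15.7% from WT 74 and KO 73 alone. These settings change which regions count, elsewhere too.

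The median log2 width change of -0.19 was from -0.25 to -0.14 with 1 library left out. It was 0.05 with library medians subtracted and 0.07 with quantile normalization, which move all shared regions from -0.18 to the same values. Both scalings take out a change common to all shared regions, so they cannot settle its direction. Against 10 regions called narrower by limma, the count was 1 with medians subtracted, 0 with quantile normalization and 0 without a variance trend. Fits without KO 67, KO 73, WT 66 or WT 74 leave 1 residual degree of freedom, so their calls say nothing about stability.

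The median gap of 18.4 kb was 22.8 kb with a stricter score, 21.6 kb with lists of equal length and 20.2 kb with regions up to 1000 bp apart merged. The median WT length of 1498 bp was 1320 to 1471 bp with 1 WT library left out, 1670 bp with a stricter score and 1697 bp with lists of equal length. The median WT percentile of 56.6 was 52.4 to 52.6 with 1 WT library left out. No paired analysis was possible because KO and WT libraries share no number.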

Other observations

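Some lost regions flanked a broad region that narrowed. The region at chr19:45853616-45860744, the highest of chromosome 19 by the smaller WT score percentile, had a lost region 1.01 kb before it (chr19:45850334-45852606, 2273 and 957 bp in WT) and another 0.535 kb after it (chr19:45861280-45862037, 501 and 758 bp in WT). Beyond each of these lay a region found in WT 74 alone, of 501 bp. The window from 45 to 46 Mb held 4 of the 29 lost regions, the most of any. Of the lost regions, 3 pairs were next to each other with no other union region between. These places were picked after their values were seen.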
